A study of Homo sapiens with 9 samples.

Results

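ANKRD11 encodes a large nuclear protein with ankyrin repeats that binds nuclear receptor coactivators of the p160 family and brings histone deacetylases to them. It was followed here with its paralog ANKRD12, the p160 coactivators NCOA1, NCOA2 and NCOA3, the corepressor scaffold NCOR1, and HDAC3, the deacetylase that NCOR1 carries. The 7 genes were found by symbol among the 18143 genes of the deposited files, and all 7 were present. ANKRD11 was chosen because its level differed strongly between 2 siRNAs against REV1 in these same libraries, so its own values are a description and no p is given for it. The other 6 genes were chosen as its paralog and partners, with earlier results of these data known.

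The libraries came from A549, a cell line of human lung adenocarcinoma, taken 48 h after siRNA transfection. One group received a scramble siRNA, and the other groups received SiREV1#1 or SiREV1#2, which target different sites of REV1, a DNA polymerase of translesion synthesis. Each group held 3 replicates, giving 9 libraries of 1 cell line, and nothing in the labels ties same-numbered libraries to a shared day or culture. No ligand of a nuclear receptor was part of any group's label. Because these are bulk samples, fewer cells of a kind and less RNA per cell cannot be told apart.

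Nuclear receptors are transcription factors, many of which switch on when a hormone or lipid ligand binds. The ligand-bound receptor recruits p160 coactivators, which bring histone acetyltransferases and methyltransferases to the gene, while the unliganded receptor can hold NCOR1 and HDAC3 and keep the gene's histones deacetylated. ANKRD11 and ANKRD12 dampen ligand-dependent activation by binding the p160 proteins. Loss of a copy of ANKRD11 causes KBG syndrome, a disorder of skeletal and brain development.

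In every group replicate 1 stood apart from replicates 2 and 3. Values of the 7 genes, list counts and guide-word medians are therefore also given without it, though not for every comparison. Total expected counts ran from 13059082 to 20166451 over the 8 libraries with counts of their own. The count column of SiREV1#2 replicate 3 repeated that of replicate 2 at 100.0% of genes and was not used, so SiREV1#2 had 2 libraries in count tests and 3 in values given as FPKM (sequenced fragments corrected for the length of the transcript and the depth of the library). Of 10 genes listed as A549 epithelium markers, KRT8, KRT18 and ALDH1A1 were at or over 1372 FPKM in all 9 libraries, while KRT19 and EPCAM stayed at or under 2.38 FPKM. Of 13 measured markers of other cell types, 10 were under 1 FPKM in every library, and CD68, between 18.3 and 81.6 FPKM, made up most of their summed level. That sum ran from 19.8 to 41.2 FPKM in scramble, from 20.9 to 87.0 FPKM after SiREV1#1 and from 25.1 to 50.9 FPKM after SiREV1#2, and its part in the results was not tested. REV1 itself averaged 7.86 ± 0.606 FPKM (SD, n = 3) in scramble, 2.96 ± 0.382 with SiREV1#1 and 3.39 ± 0.221 with SiREV1#2. It was lower in 3 of 3 same-numbered pairs for each siRNA. Among all genes with a mean FPKM over 1, 35.5% were lower in every pair after SiREV1#1 and 29.7% after SiREV1#2.

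The siRNA sites and the matching stretches of ANKRD11 are shown here because the position of ANKRD11 between the siRNAs is the finding to be described. Sequences were read from GENCODE release 29 transcripts on GRCh38, 5′ to 3′, and capitals mark the 7-base word that pairs with bases 2 to 8 of the siRNA's guide strand. Both REV1 sites lie in the coding sequence of REV1-201, that of SiREV1#1 in exon 18 of 23 at chr2:99404474-99404492 and that of SiREV1#2 across the junction of exons 4 and 5, all on the minus strand.
REV1, SiREV1#1 site, bases 3226 to 3244: gaacagtgacgCAGGAATa
REV1, SiREV1#2 site, bases 579 to 597: gcatcaaagctGGACGACt

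The ANKRD11 gene spans 89267619 to 89490561 on chromosome 16 (minus strand). Its longest coding transcript, ANKRD11-201, has 9312 bases in 13 exons and held the SiREV1#2 word GGACGAC 6 times, on the transcript strand and without overlap between matches. All 6 matches lie in the coding sequence and in exon 9, between 89279410 and 89285500 on chromosome 16. The windows below are aligned to the SiREV1#2 site, with 11 bases before the word and 1 after.
ANKRD11 bases 1503 to 1521: gagtttgatgaGGACGACg
ANKRD11 bases 1533 to 1551: gttcctccggtGGACGACa
ANKRD11 bases 3822 to 3840: gatgagagtgaGGACGACa
ANKRD11 bases 6834 to 6852: gccggccccgaGGACGACc
ANKRD11 bases 7323 to 7341: gccggccccgaGGACGACa
ANKRD11 bases 7575 to 7593: cgcggctccgaGGACGACg

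The windows shared 7 to 11 of their 19 bases with the REV1 site, the word included. Outside these matches, the longest run that ANKRD11-201 shared with the SiREV1#2 site was 12 bases, CAAAGCTGGACG, which are bases 5 to 16 of the site and bases 7093 to 7104 of the transcript, also in exon 9. A run of 12 or more bases was found in 40 of 13875 tested genes with a coding transcript (0.29%), REV1 included. ANKRD11-201 held the SiREV1#1 word CAGGAAT 0 times.

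The word of SiREV1#2 was absent from the longest coding transcripts of the other 6 genes. The word of SiREV1#1 was present 3 times in the longest coding transcript of NCOA1, 2 times each in those of NCOA2, NCOA3 and NCOR1, once in ANKRD12-201 and 0 times in HDAC3-201. The matches of NCOA1, NCOA2 and NCOR1 lie in coding sequence, and those of NCOA3 and ANKRD12 lie in the 3′ UTR. The windows of ANKRD12, the paralog, and of NCOA1, which held the most matches of the 6, are shown as examples.
ANKRD12 bases 7807 to 7825: aattaaatattCAGGAATa
NCOA1 bases 2136 to 2154: tatggaaggtaCAGGAATa
NCOA1 bases 4404 to 4422: gtatccaggagCAGGAATg
NCOA1 bases 4737 to 4755: tttgcagatgcCAGGAATg

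A match is a description of letters, and no site was measured in these data. GGACGAC occurred at least once in 11.9% of the 13875 genes and at least 6 times in 4 genes (0.029%), whereas CAGGAAT occurred at least once in 30.7%. The 4 genes were MUC5B with 14 matches, CHD5 with 7, and ANKRD11 and CASZ1 with 6 each. They were picked by match count after the values of ANKRD11 had been seen.

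ANKRD11 lay on opposite sides of scramble after the siRNAs. In scramble it stood at 18.3, 20.5 and 20.3 FPKM in replicates 1, 2 and 3. After SiREV1#1 it stood at 20.8, 29.4 and 28.7 FPKM. After SiREV1#2 it stood at 4.68, 4.54 and 4.52 FPKM. All 3 SiREV1#1 libraries were above all scramble libraries, and all 3 SiREV1#2 libraries were below them, so that no groups overlapped. The means were 19.7 ± 1.20 FPKM (SD, n = 3) in scramble, 26.3 ± 4.80 after SiREV1#1 and 4.58 ± 0.0872 after SiREV1#2.

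**Figure D1:**
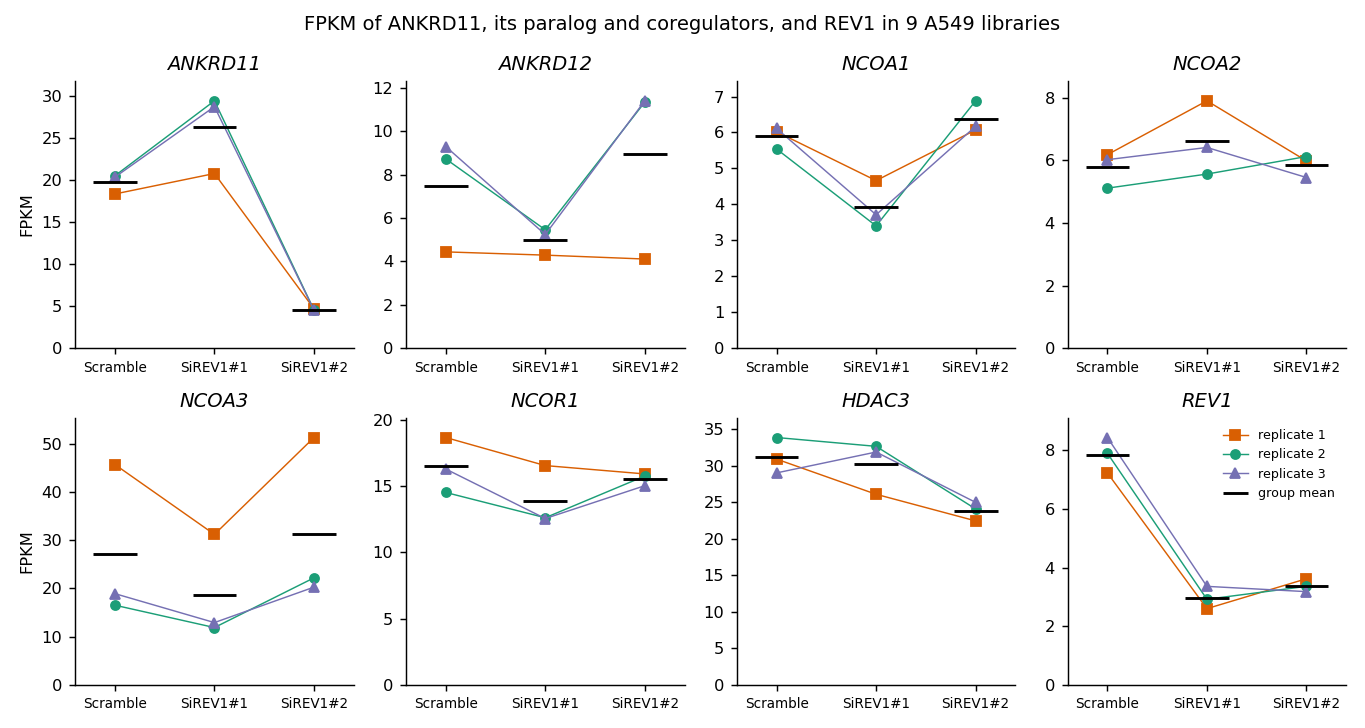
FPKM of the 7 genes and of REV1 on linear axes that start at 0, by siRNA group. Each point is 1 library, lines join libraries of the same replicate number, and black bars are group means. ANKRD11 was highest after SiREV1#1 and between 4.52 and 4.68 FPKM after SiREV1#2, and NCOA3 was higher in replicate 1 of every group.

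The larger part of the difference lay on the SiREV1#2 side. In edgeR's fit of the 8 count libraries, ANKRD11 was 4.14-fold lower after SiREV1#2 than in scramble, a log2 fold change of -2.05 (SE 0.20). After SiREV1#1 it was 1.40-fold higher, a log2 fold change of 0.48 (SE 0.17). Between the siRNAs the difference was 2.53 on the log2 scale (SE 0.21). Without replicate 1 the 3 log2 fold changes were -2.15, 0.53 and 2.68, and with the replicate number as a block they were -2.01, 0.48 and 2.49.

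Within same-numbered pairs, the log2 ratio of SiREV1#2 to scramble (on FPKM + 0.1) was -1.95, -2.15 and -2.14 in replicates 1, 2 and 3. The ratio of SiREV1#1 to scramble was 0.18, 0.52 and 0.50, with the smallest value in replicate 1. Ordered by fitted log2 fold change over 14205 genes, ANKRD11 was the 54th lowest after SiREV1#2, the 1862nd highest after SiREV1#1 and the 50th highest between the siRNAs. These places describe how the gene was chosen.

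**Figure D2:**
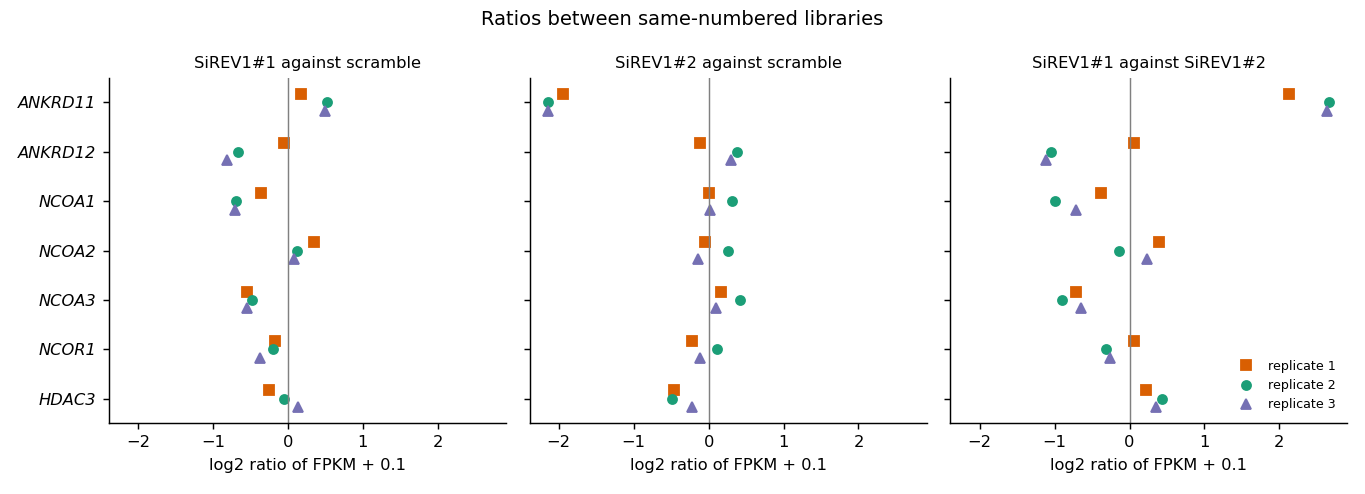
The log2 ratio of FPKM + 0.1 within each same-numbered pair of libraries, for 3 comparisons. Each point is 1 pair, and the vertical line marks no difference. ANKRD11 lay from -2.15 to -1.95 in SiREV1#2 against scramble, and NCOA3 lay from -0.55 to -0.47 in SiREV1#1 against scramble.

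Of the other 6 genes, 0 passed in any comparison in the fit without a block (edgeR quasi-likelihood test, adjusted p under 0.05 over 14205 genes). Over all genes that fit called 42 after SiREV1#1 (0.296%), 0 after SiREV1#2 (0%) and 96 between the siRNAs (0.676%). It did not call REV1, the target of the siRNAs, after SiREV1#2, at -1.33 on the log2 scale (edgeR adjusted p = 0.154). After SiREV1#1 it called REV1 at -1.26 (edgeR adjusted p = 0.042). With the replicate block REV1 passed for both siRNAs (edgeR adjusted p = 0.00165 and 0.00989). A gene that did not pass without the block is therefore not shown to be unchanged. At an unadjusted p under 0.05 the counts were 1385, 778 and 1762 genes, among them NCOA1 after SiREV1#1, none of the 6 after SiREV1#2, and NCOA1 and HDAC3 between the siRNAs. DESeq2 called 216 genes after SiREV1#2 and limma-trend on log2(FPKM + 1) called 66, also with 0 of the 6 genes.

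With the replicate block, 0 of the 6 genes passed against scramble for either siRNA, and NCOA1 and NCOA3 passed between the siRNAs, both lower after SiREV1#1. The block fit called 5.32% of all genes higher and 6.96% lower after SiREV1#1, 0.493% higher and 1.41% lower after SiREV1#2, and 8.75% higher and 8.87% lower between the siRNAs. On replicates 2 and 3 alone, 4 of the 6 passed after SiREV1#1, 3 after SiREV1#2 and 5 between the siRNAs. That fit called 46.5%, 38.4% and 54.4% of all genes in the same order, so the shares of the 6 genes were read against a high background. It holds 1 count library of SiREV1#2, which is assumed to vary like the other groups.

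The sign within same-numbered pairs was the same in 3 of 3 pairs for several of the 6 genes. After SiREV1#1, ANKRD12, NCOA1, NCOA3 and NCOR1 were lower and NCOA2 was higher in every pair, where 35.5% of genes were lower and 19.6% higher in every pair. After SiREV1#2, NCOA1 and NCOA3 were higher (25.9% of all genes) and HDAC3 was lower (29.7%). The log2 ratios of NCOA1 there were 0.0117, 0.3075 and 0.0139 in replicates 1, 2 and 3, so it was nearly level in replicates 1 and 3. Between the siRNAs, NCOA1 and NCOA3 were lower after SiREV1#1 (35.6%) and HDAC3 was higher (24.1%). The comparisons with scramble share its 3 libraries, and those of each siRNA recur in the comparison between siRNAs.

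**Figure D3:**
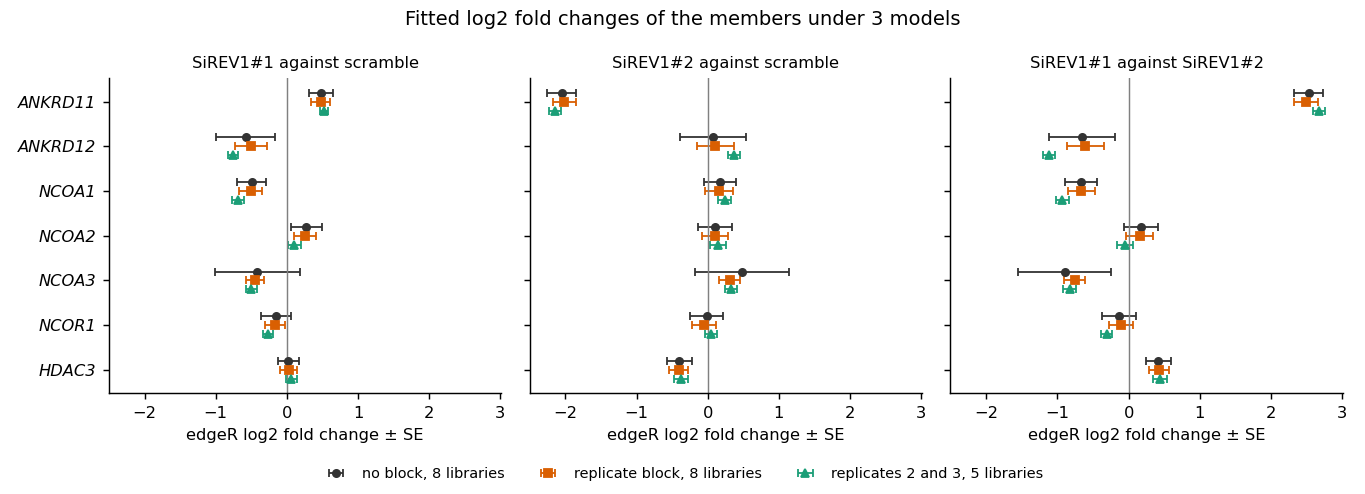
Log2 fold changes with standard errors from edgeR for the 7 genes, in 3 comparisons and under 3 fits: without a block, with the replicate block, and on replicates 2 and 3 only. ANKRD11 lay on opposite sides of 0 for the 2 siRNAs in all 3 fits. The standard errors of ANKRD12 and NCOA3 were widest without the block.

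ANKRD12, the paralog of ANKRD11, did not follow it. In scramble it stood at 4.44, 8.73 and 9.30 FPKM in replicates 1, 2 and 3. After SiREV1#1 it stood at 4.29, 5.46 and 5.24 FPKM, and after SiREV1#2 at 4.11, 11.4 and 11.4 FPKM. Replicate 1 was low and nearly level over the groups, while in replicates 2 and 3 the SiREV1#1 libraries were lowest and the SiREV1#2 libraries highest, so the groups overlapped. The log2 fold change without the block was -0.58 (SE 0.42) after SiREV1#1 (edgeR adjusted p = 0.813) and 0.08 (SE 0.46) after SiREV1#2 (edgeR adjusted p = 1). On replicates 2 and 3 alone they were -0.76 and 0.36, each on the side opposite to that of ANKRD11. That fit held 1 count library of SiREV1#2. Replicate 1 was 0.493 times the mean of replicates 2 and 3 in scramble, 0.802 times after SiREV1#1 and 0.361 times after SiREV1#2.

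NCOA1, a p160 coactivator, was lower after SiREV1#1 than in either other group. It stood at 6.02, 5.54 and 6.11 FPKM in scramble and at 4.66, 3.40 and 3.71 FPKM after SiREV1#1. After SiREV1#2 it stood at 6.07, 6.88 and 6.17 FPKM. The SiREV1#1 libraries did not overlap with those of either group, and the scramble and SiREV1#2 libraries overlapped. For NCOA1, and wherever libraries are said not to overlap, the share of all genes with such a gap was not counted. The log2 fold change after SiREV1#1 was -0.49 (SE 0.20) and did not pass (edgeR adjusted p = 0.491). With the replicate block it was -0.51 (edgeR adjusted p = 0.0858), and on replicates 2 and 3 alone -0.69 (edgeR adjusted p = 2.59e-05). Between the siRNAs it was -0.66 (edgeR adjusted p = 0.264) without the block and -0.67 (edgeR adjusted p = 0.0482) with it.

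NCOA3, the p160 coactivator also known as AIB1, differed more between replicate 1 and the other replicates than between siRNAs. It stood at 45.7, 16.5 and 18.9 FPKM in scramble, at 31.2, 11.9 and 12.9 FPKM after SiREV1#1 and at 51.4, 22.2 and 20.3 FPKM after SiREV1#2. Replicate 1 was 2.59, 2.52 and 2.42 times the mean of replicates 2 and 3 in scramble, SiREV1#1 and SiREV1#2, so the groups overlapped although every SiREV1#1 library was the lowest of its number. For SiREV1#1 the log2 ratio to scramble within pairs was -0.55, -0.47 and -0.55, and for SiREV1#2 it was 0.17, 0.42 and 0.10. Without the block the log2 fold change after SiREV1#1 was -0.41 (SE 0.60, edgeR adjusted p = 0.971), and with it -0.45 (SE 0.13, edgeR adjusted p = 0.0584). After SiREV1#2 the values were 0.49 (SE 0.66, edgeR adjusted p = 1) and 0.31 (SE 0.15, edgeR adjusted p = 0.329). On replicates 2 and 3 alone, NCOA3 was at -0.50 after SiREV1#1 and at 0.33 after SiREV1#2. That fit held 1 count library of SiREV1#2, replicate 2, whose pair ratio of 0.42 was the largest of the 3. Between the siRNAs the block turned -0.90 (edgeR adjusted p = 0.71) into -0.76 (edgeR adjusted p = 0.0133). On replicates 2 and 3 alone the difference was -0.83. Without the block, leaving out 1 library moved the difference between the siRNAs from -0.15 (without SiREV1#2 replicate 1) to -1.60 (without SiREV1#1 replicate 1).

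NCOA2, the remaining p160 coactivator, passed the test in none of these fits. It stood at 6.18, 5.11 and 6.02 FPKM in scramble, at 7.90, 5.56 and 6.41 FPKM after SiREV1#1 and at 5.98, 6.12 and 5.45 FPKM after SiREV1#2. The groups overlapped. The log2 fold change was 0.28 (SE 0.21) after SiREV1#1 and 0.10 (SE 0.24) after SiREV1#2, without replicate 1 it was 0.10 and 0.15, and over the fits with a test its lowest adjusted p was 0.327 in any comparison.

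NCOR1, the scaffold that holds HDAC3 on unliganded receptors, was 18.7, 14.5 and 16.3 FPKM in scramble and 16.6, 12.6 and 12.6 FPKM after SiREV1#1. After SiREV1#2 it was 15.9, 15.8 and 15.0 FPKM. The groups overlapped, and the lowest 2 values were those of replicates 2 and 3 after SiREV1#1. The log2 fold change was -0.15 (SE 0.21, edgeR adjusted p = 0.97) after SiREV1#1 and -0.02 (SE 0.24, edgeR adjusted p = 1) after SiREV1#2. On replicates 2 and 3 alone the first was -0.26 (edgeR adjusted p = 0.00772).

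HDAC3 was lower after SiREV1#2, on the same side as ANKRD11, with a smaller difference. It stood at 30.9, 33.9 and 29.1 FPKM in scramble and at 26.1, 32.7 and 31.9 FPKM after SiREV1#1. After SiREV1#2 it stood at 22.5, 24.1 and 25.0 FPKM, below every library of the other groups, which overlapped with each other. The log2 fold change after SiREV1#2 was -0.40 (SE 0.17) and did not pass (edgeR adjusted p = 0.93). It was -0.41 with the replicate block (edgeR adjusted p = 0.176) and -0.38 on replicates 2 and 3 alone, where SiREV1#2 had 1 count library. After SiREV1#1 it was 0.02 (SE 0.15).

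In scramble the order of levels per length was HDAC3 at 31.3 ± 2.44 FPKM (SD, n = 3), NCOA3 at 27.1 ± 16.2, ANKRD11 at 19.7 ± 1.20, NCOR1 at 16.5 ± 2.08, ANKRD12 at 7.49 ± 2.66, NCOA1 at 5.89 ± 0.306 and NCOA2 at 5.77 ± 0.577. The libraries of HDAC3 and NCOA3 overlapped, as did those of NCOA3, ANKRD11 and NCOR1 with each other, and those of ANKRD12, NCOA1 and NCOA2. ANKRD11 was at the 66.2 percentile of expressed genes in scramble. After SiREV1#2 its mean of 4.58 FPKM was under that of NCOA2, the lowest of the other 6 there at 5.85 ± 0.353 FPKM.

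Reads of near-identical copies could have been split by the authors' counting. Of the 50-base words of ANKRD11-201, 8.2% also occur in transcripts of other annotated genes (Z97180.1 and AC105342.1), against 2.52% for ANKRD12 and under 1% for each other gene. Exons of other genes on the opposite strand cover 3.31% of the exon bases of ANKRD11, 9.2% of HDAC3 and 3.3% of NCOR1, and whether the counting used strand is not given in the sources used here.

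Over all genes, the median log2 fold change after SiREV1#2 was lower where the longest coding transcript held its guide word than where it did not, with similar medians for 2 matches and for 3 or more. It was 0.05 over 12224 genes with 0 matches to GGACGAC, -0.20 over 1429 genes with 1, -0.47 over 183 genes with 2 and -0.40 over 39 genes with 3 or more. After SiREV1#1 the medians of the same genes were 0.00, 0.01, 0.09 and -0.03. For CAGGAAT the medians after SiREV1#1 were 0.04, -0.06, -0.14 and -0.10 over 9620, 3179, 803 and 273 genes, and after SiREV1#2 they were 0.01, 0.03, 0.04 and 0.09. Without replicate 1 the medians after SiREV1#2 by GGACGAC matches were 0.03, -0.30, -0.66 and -0.60, and those after SiREV1#1 by CAGGAAT matches were 0.04, -0.07, -0.15 and -0.11.

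The grouping by matches was made after the values had been seen, and no test was run on it. Transcripts with more matches can also be longer, and the part of length was not tested. The 4 genes with 6 or more GGACGAC matches had log2 fold changes of -2.05 (ANKRD11), -2.13 (CHD5), -1.55 (CASZ1) and -0.30 (MUC5B) after SiREV1#2. CHD5 was at or under 0.12 FPKM in every library. CASZ1, a zinc finger transcription factor, stood at 1.41, 3.85 and 3.78 FPKM in scramble and at 0.64, 1.68 and 1.73 FPKM after SiREV1#2. The part of the matches in the level of ANKRD11 was not tested.

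**Figure D4:**
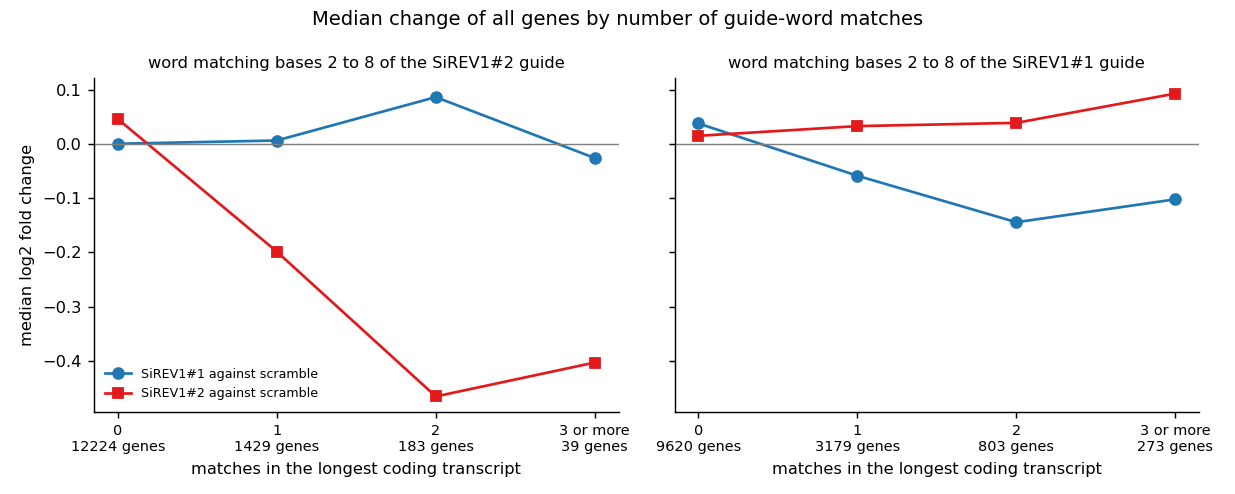
Median log2 fold change (edgeR without a block) of all tested genes with a coding transcript, by the number of matches to the guide word of SiREV1#2 (left) or SiREV1#1 (right). Circles are SiREV1#1 against scramble, squares are SiREV1#2 against scramble, and the number of genes stands under each group. After SiREV1#2 the medians were 0.05, -0.20, -0.47 and -0.40 in the left panel.

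The genes whose pattern was most like that of ANKRD11 were ANAPC15, PKP2, C1orf174, PRICKLE2 and CASP9. Likeness was Pearson's correlation of log2(FPKM + 1) over the 9 libraries after subtracting the mean of each replicate number, among 11429 genes with a mean FPKM over 1, and the 5 values ran from 0.996 to 0.998. The 9 points of every gene come from the same libraries, so the values are a description. CASP9, the initiator caspase of the mitochondrial death pathway, stood at 3.85, 5.93 and 7.21 FPKM in scramble, at 5.05, 10.0 and 9.37 FPKM after SiREV1#1 and at 0.95, 1.45 and 1.51 FPKM after SiREV1#2. ANAPC15, a subunit of the anaphase-promoting complex, was 38.8 ± 5.39 FPKM (SD, n = 3), 44.9 ± 4.75 and 20.4 ± 4.12 in scramble, SiREV1#1 and SiREV1#2. GGACGAC occurred once in the longest coding transcript of CASP9 and 0 times in those of the other 4.

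By the same measure, HDAC3 had a correlation of 0.90 with ANKRD11, NCOA2 0.29, NCOR1 -0.34, ANKRD12 -0.71, NCOA1 -0.72 and NCOA3 -0.82. These values rest on the same 9 libraries.

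**Figure D5:**
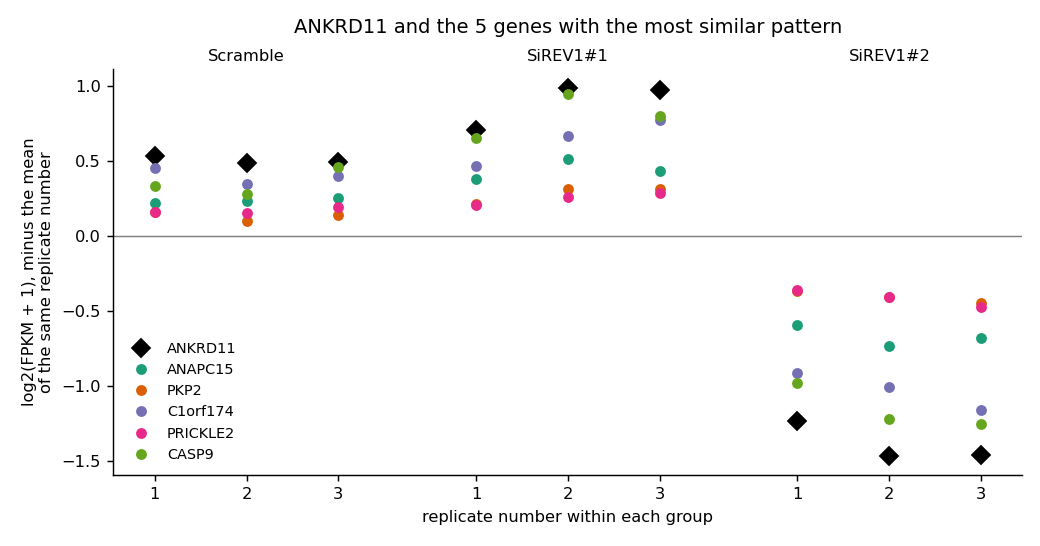
ANKRD11 (diamonds) and the 5 genes with the most similar pattern (circles), as log2(FPKM + 1) minus the mean of the same replicate number, in each of 9 libraries. All 6 genes lay above 0 in the 3 scramble and 3 SiREV1#1 libraries and below 0 in the 3 SiREV1#2 libraries. The correlations with ANKRD11 ran from 0.996 to 0.998.

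The surrounding pathway was described with lists chosen with earlier results known, and in the fit without a block 0 genes of any list passed against scramble. Calls named here come from the edgeR fit with the replicate block unless stated. Of the 74 calls of list genes in that fit over the 3 comparisons, all 74 had the same direction without replicate 1. The fit without replicate 1 uses libraries that also gave these calls. The agreement was therefore largely fixed beforehand and lends the calls no support. Of 22 other nuclear receptor coactivators, 1 rose and 1 fell after SiREV1#1, and 0 rose and 1 fell after SiREV1#2. The block fit called 5.32% of all genes higher and 6.96% lower after SiREV1#1, and 0.493% and 1.41% after SiREV1#2. The 1 of 22 in each direction after SiREV1#1 was thus near the background. The list's median log2 fold change was 0.12 after SiREV1#1 and -0.13 after SiREV1#2, where the medians of all genes were 0.00 and 0.01. Without replicate 1, 10 of the 22 passed after each siRNA, where 46.5% and 38.4% of all genes did.

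CARM1, the arginine methyltransferase that binds p160 coactivators, moved in opposite directions. It stood at 27.2, 20.5 and 20.7 FPKM in scramble, at 45.0, 34.6 and 33.9 FPKM after SiREV1#1 and at 15.7, 12.4 and 11.6 FPKM after SiREV1#2. No groups overlapped. The log2 fold change of CARM1 was 0.79 after SiREV1#1 (edgeR adjusted p = 0.00642) and -0.76 after SiREV1#2 (edgeR adjusted p = 0.0408). CARM1-201 held neither guide word.

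NCOA7, a coactivator unrelated in sequence to the p160 family, was 61.3 ± 35.2 FPKM (SD, n = 3) in scramble, 17.1 ± 8.79 after SiREV1#1 and 50.3 ± 28.9 after SiREV1#2. It fell after SiREV1#1 by 1.66 on the log2 scale (edgeR adjusted p = 0.00111). TADA3, an adaptor of acetyltransferase complexes, passed in the comparison between the siRNAs, at 0.77 (edgeR adjusted p = 0.0169).

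Of 25 other corepressors and histone deacetylases, 1 rose and 5 fell after SiREV1#1 and 0 passed after SiREV1#2. Among all genes 5.32% rose and 6.96% fell after SiREV1#1. Between the siRNAs 1 was higher and 6 were lower after SiREV1#1, beside 8.75% and 8.87% of all genes. The median log2 fold changes of the list were -0.06 and -0.02 against scramble. Without replicate 1, 18 of the 25 passed after SiREV1#1, where 46.5% of all genes did, and 13 after SiREV1#2, where 38.4% did.

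TBL1X and TBL1XR1, the related WD-repeat subunits of the NCOR1 and HDAC3 complex, moved apart after SiREV1#1. TBL1X stood at 11.1, 7.31 and 7.21 FPKM in scramble and at 17.8, 14.7 and 15.2 FPKM after SiREV1#1, a log2 fold change of 1.00 (edgeR adjusted p = 0.0035). TBL1XR1 stood at 9.53, 6.77 and 7.42 FPKM in scramble and at 2.83, 4.35 and 3.73 FPKM after SiREV1#1, a log2 fold change of -1.05 (edgeR adjusted p = 0.0103). Neither group of SiREV1#1 libraries overlapped with scramble, and neither gene passed after SiREV1#2.

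RBBP4, a histone chaperone of deacetylase complexes, fell from 14.6 ± 5.25 FPKM (SD, n = 3) in scramble to 3.93 ± 0.461 after SiREV1#1, a log2 fold change of -1.76 (edgeR adjusted p = 0.00111). LCOR, a ligand-dependent corepressor, fell by 0.53 on the log2 scale (edgeR adjusted p = 0.0381). LCORL and HDAC7, named because they complete the count and not by the rule, also fell. CAGGAAT occurred once each in the longest coding transcripts of RBBP4, TBL1XR1 and LCORL and 0 times in those of LCOR and HDAC7. It also occurred once in that of TBL1X, which rose. Among all genes 30.7% held it at least once.

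Of 48 nuclear receptors, 47 were in the files, 40 were tested and 29 had a scramble mean over 1 FPKM. NR3C1, the glucocorticoid receptor, had the highest level in scramble, at 58.6 ± 23.7 FPKM (SD, n = 3). PPARG stood at 28.9 ± 10.8 FPKM, ESRRA at 27.0 ± 8.31 FPKM and RARA, a retinoic acid receptor, at 26.3 ± 8.10 FPKM. After SiREV1#1 8 of the 40 receptors rose and 3 fell (among all genes, 5.32% and 6.96%), and after SiREV1#2 0 rose and 1 fell (among all genes, 0.493% and 1.41%), with list medians of 0.26 and 0.07 on the log2 scale. Without replicate 1, 22 of 39 passed after SiREV1#1, where 46.5% of all genes did, and 17 after SiREV1#2, where 38.4% did.

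The receptor that fell after SiREV1#2 was NR1H2, the liver X receptor beta. It stood at 38.0, 36.8 and 36.5 FPKM in scramble, at 32.1, 34.8 and 36.2 FPKM after SiREV1#1 and at 10.9, 15.1 and 16.5 FPKM after SiREV1#2. The SiREV1#2 libraries lay below all others. Its log2 fold change was -1.49 (edgeR adjusted p = 0.00923), and between the siRNAs it also passed without the block, at 1.46 (edgeR adjusted p = 0.0302). NR1H2-201 held GGACGAC 2 times, both in coding sequence.

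NR1D2, a circadian repressor that works through NCOR1, fell after SiREV1#1 by 0.77 on the log2 scale (edgeR adjusted p = 0.0153). It stood at 4.37, 17.1 and 19.2 FPKM in scramble, at 2.29, 10.0 and 11.4 FPKM after SiREV1#1 and at 5.52, 31.8 and 29.4 FPKM after SiREV1#2. The SiREV1#1 library was the lowest of each replicate number. NR0B1 fell after SiREV1#1 by 0.58 on the log2 scale (edgeR adjusted p = 0.0454). THRA, a thyroid hormone receptor, rose by 0.50 (edgeR adjusted p = 0.0468).

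Of 15 glucocorticoid receptor target genes, SGK1 and ANGPTL4 rose after SiREV1#1 and BIRC3 rose after SiREV1#2, and 0 fell against scramble. The shares of all genes that rose were 5.32% and 0.493%. SGK1, a kinase, stood at 12.8, 10.8 and 9.52 FPKM in scramble and at 19.8, 20.0 and 20.6 FPKM after SiREV1#1, a log2 fold change of 0.96 (edgeR adjusted p = 0.00436). BIRC3, an inhibitor of apoptosis that NF-kB also controls, had a log2 fold change of 1.06 after SiREV1#2 (edgeR adjusted p = 0.0286). Between the siRNAs, 3 were higher and 3 lower after SiREV1#1, beside 8.75% and 8.87% of all genes. Among them were MT1X, a metallothionein, at 0.99 (edgeR adjusted p = 0.0138) and CDKN1C, a cell cycle inhibitor, at -1.94 (edgeR adjusted p = 0.0157). CDKN1C was low, at 0.36 ± 0.062 FPKM (SD, n = 3) in scramble, 0.193 ± 0.021 after SiREV1#1 and 0.893 ± 0.454 after SiREV1#2. ANGPTL4 was named to complete the count. Replicates 2 and 3 alone gave 8 of the 15 after each siRNA, where 46.5% and 38.4% of all genes passed.

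Of 11 target genes of retinoid, vitamin D and liver X receptors, 4 rose and 0 fell after SiREV1#1 (among all genes, 5.32% and 6.96%), and 0 passed after SiREV1#2. CYP26A1 and CYP26B1 degrade retinoic acid. CYP26A1 was low, at 0.46 ± 0.208 FPKM (SD, n = 3) in scramble, 1.12 ± 0.758 after SiREV1#1 and 0.167 ± 0.101 after SiREV1#2, with a log2 fold change of 1.25 after SiREV1#1 (edgeR adjusted p = 0.0321). CYP26B1 rose by 0.57 (edgeR adjusted p = 0.029). ABCA1, a cholesterol exporter, rose from 0.14 ± 0.01 to 0.363 ± 0.081 FPKM (edgeR adjusted p = 0.00969). SREBF1 was the other gene that rose and is named to complete the count. The list's median was 0.26 after SiREV1#1 and 0.13 after SiREV1#2, beside 0.00 and 0.01 for all genes. Between the siRNAs 4 were higher and 1 lower after SiREV1#1, beside 8.75% and 8.87% of all genes. ABCG1 was among the higher, at 1.65 (edgeR adjusted p = 0.0192). Its level was low, at 0.407 ± 0.2 FPKM (SD, n = 3) in scramble, 0.393 ± 0.203 after SiREV1#1 and 0.163 ± 0.067 after SiREV1#2. Replicates 2 and 3 alone gave a count in which 4 rose and 2 fell after SiREV1#1, and 2 rose and 3 fell after SiREV1#2, where 46.5% and 38.4% of all genes passed.

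Of 32 ankyrin repeat genes and neighbours of ANKRD11 at 16q24.3, 1 rose and 4 fell after SiREV1#1 (among all genes, 5.32% and 6.96%), and 1 rose and 0 fell after SiREV1#2 (among all genes, 0.493% and 1.41%). The list's median was -0.16 and 0.04 on the log2 scale. Between the siRNAs 4 were higher and 4 lower after SiREV1#1, beside 8.75% and 8.87% of all genes. The 4 higher were ANKRD52 at 1.45, ANKRD13B at 1.39, and the 16q24.3 neighbours CPNE7 at 1.33 and CDK10 at 0.69 (edgeR adjusted p from 0.00539 to 0.0153). CPNE7 and CDK10 complete that count and were not named by the rule. GGACGAC occurred once each in the longest coding transcripts of ANKRD13B and CPNE7 and 0 times in those of ANKRD52 and CDK10. CPNE7-201 also shared a run of 12 bases with the SiREV1#2 site. The part of these matches in the levels was not tested. ANKRD13C stood at 6.07, 6.91 and 7.63 FPKM in scramble, at 1.45, 2.31 and 2.42 FPKM after SiREV1#1 and at 6.86, 9.94 and 10.1 FPKM after SiREV1#2. Its SiREV1#1 libraries lay below all others, with a log2 fold change of -1.66 (edgeR adjusted p = 0.00102), and between the siRNAs it passed without the block too, at -1.996 (edgeR adjusted p = 0.0318). ANKRD52, a subunit of a protein phosphatase complex, rose after SiREV1#1 by 1.12 on the log2 scale (edgeR adjusted p = 0.00901). ANKRD13C-202 held CAGGAAT 2 times and ANKRD52-201 held it 0 times. ANKRD46 rose after SiREV1#2 by 1.40 (edgeR adjusted p = 0.0443), from 2.90 ± 0.494 to 6.65 ± 2.37 FPKM. Replicates 2 and 3 alone gave 12 of the 32 after SiREV1#1, where 46.5% of all genes passed, and 19 after SiREV1#2, where 38.4% did.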

How the data were processed

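The authors deposited, for each of 9 libraries, expected counts per gene, without normalization, and FPKM values, for 18143 genes. Per the labels, StringTie 1.3.3b and hg38 were used, with no role given. The aligner, annotation and strand setting are not given in the sources used here. Of the deposited count values 42.6% are not whole, and they were rounded. Depth was 13059082 to 20166451 counts over 8 libraries. The count column that repeated another library's was left out.

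Groups came from the sample labels. edgeR 4.0.16 (R 4.3.3) tested 14205 genes kept by filterByExpr, with TMM scaling, the quasi-likelihood F test in 1 fit of 3 groups and Benjamini-Hochberg adjustment. Fold changes are log2, and standard errors were derived from them and the F statistic. P-values measure the spread between these libraries, which may be technical. DESeq2 1.42.0 and limma 3.58.1 on log2(FPKM + 1) or log2(FPKM + 0.1), a replicate block, upper-quartile scaling, no filter, replicates 2 and 3 only and leaving out each library were alternatives, and limma on replicates 2 and 3, with the list-gene calls and guide-word medians without replicate 1, was added after seeing the data. The edgeR fits without and with the block, and limma-trend, were also run on simulated counts with known changes. Those counts held no shift of replicate 1, so the simulation does not show how the fits handle that shift.

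The replicate numbers come from the labels. Same-numbered libraries deviated together from their group means in all 9 pairs (correlation 0.734 to 0.929 over 11429 genes). Differently numbered libraries among replicates 2 and 3 correlated as highly (0.751 to 0.914), and those of replicate 1 with replicate 2 or 3 at -0.924 to -0.754, so the shared deviation separates replicate 1 from the others and does not tell 2 from 3. The fit with the replicate block stands beside the fit without it. The biological coefficient of variation was 0.412 without the block and 0.161 with it.

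The 7 genes and the lists were chosen with earlier results of these data known. Named genes are these 7, REV1, up to 4 genes per list and fit by smallest p among those with an adjusted p under 0.05, levels of a list's defining genes, and the 5 genes most like ANKRD11. Guide words came from the siRNA sequences in the study's methods and were searched on the transcript strand only, in the longest coding transcript of each gene in GENCODE release 29, which was matched for 13875 of 14205 genes (97.7%). Python 3.11.15 with pandas 2.3.3, numpy 2.4.6 and matplotlib 3.10.9 made the other tables and the figures.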

Additional observations from a re-analysis of the deposited data

How the results depend on the processing

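The direction of ANKRD11 held under all 17 alternatives in each comparison, from -2.15 to -1.89 after SiREV1#2, 0.38 to 0.57 after SiREV1#1 and 2.27 to 2.68 between the siRNAs. ANKRD11 was chosen on these libraries, and each alternative refits them or part of them, so these ranges are a description. Numbers of genes called are given for SiREV1#1, SiREV1#2 and the comparison between them, in this order, where the fit without a block gave 42, 0 and 96. They were 1744, 271 and 2503 with the replicate block, 569, 216 and 878 with DESeq2, 156, 66 and 595 with limma-trend on log2(FPKM + 1), 170, 76 and 606 with log2(FPKM + 0.1), 2249, 1291 and 4167 with limma-trend and the replicate block, 6597, 5450 and 7712 on replicates 2 and 3 only, and 6397, 6241 and 7915 with limma-trend on replicates 2 and 3 only.

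Of the 6 other genes, the edgeR fit with the replicate block called 0, 0 and 2, and limma-trend with the block 2, 0 and 4. On FPKM of replicates 2 and 3 only, limma-trend called 4, 3 and 5. The block changed no other call of these genes.

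Leaving out 1 library gave 0 to 35 called genes after SiREV1#1, 0 after SiREV1#2, and 0 to 93 between the siRNAs, with 0 of the 6 genes each time. After SiREV1#1 the count was 0 without Scramble replicate 2 or 3 or SiREV1#1 replicate 2 or 3, 14 without Scramble replicate 1 and 25 without SiREV1#2 replicate 2. Between the siRNAs it was 0 without Scramble replicate 2, SiREV1#1 replicate 2 or 3 or SiREV1#2 replicate 2, 14 without Scramble replicate 3, 60 without Scramble replicate 1 and 44 without SiREV1#2 replicate 1. The cause was not tested.

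Values that changed sign all failed the test. HDAC3 after SiREV1#1 was -0.0519 with limma-trend on log2(FPKM + 1), with or without the block, and -0.0536 on log2(FPKM + 0.1). NCOA2 between the siRNAs was -0.046 on replicates 2 and 3. NCOR1 after SiREV1#2 was 0.003 with DESeq2, 0.0481 on replicates 2 and 3 and 0.0009 with limma-trend there. Leaving out 1 library gave ranges of -1.21 to 0.27 for ANKRD12 between the siRNAs and -0.84 to 0.63 after SiREV1#2, -0.0178 to 0.0863 for HDAC3 after SiREV1#1, -0.0498 to 0.31 for NCOA2 between the siRNAs, -1.11 to 0.19 for NCOA3 after SiREV1#1 and -0.27 to 1.09 after SiREV1#2, and -0.0875 to 0.0834 for NCOR1 after SiREV1#2. NCOA3 between the siRNAs kept its sign, from -1.60 without SiREV1#1 replicate 1 to -0.15 without SiREV1#2 replicate 1. Counts of SiREV1#2 replicate 3 could not be tested, which leaves 2 libraries on that side.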
